A study of Rattus norvegicus with 6 samples.

Results

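The Clcn5-intron miRNA cluster was followed in small RNA libraries of male Sprague-Dawley rats, made from cortex beside the infarct after transient MCAO. Its members were the rows of the count table named miR-188, miR-362, miR-500, miR-501, miR-532 or miR-660, whatever the arm, and 6 of the 493 mature miRNAs met that rule: miR-532-5p, miR-532-3p, miR-501-3p, miR-362-5p, miR-500-3p and miR-188-5p. They come from 5 hairpins, and miR-532 was the hairpin with both arms among them. miR-660 and the opposite arms of the other 4 hairpins were not analysed here.

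All 6 rats had the right middle cerebral artery closed for 90 min and reopened. The 3 rats of the MCAO group had no stimulation, and the 3 rats of the MCAO + rTMS group received 10 Hz repetitive transcranial magnetic stimulation, pulses from a coil over the lesioned hemisphere, for 10 min a day on 7 consecutive days. MCAO cortex was taken 7 days after reperfusion (after surgery, in the label of replicate 3), and no sham-operated rat was among these libraries. The labels gave no sampling day for the MCAO + rTMS cortex. The paper dates its list of changed miRNAs to 7 days after modeling, without naming a group. A difference in sampling day between the groups, if there was one, cannot be told apart from rTMS. Ages were not given in the labels.

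A miRNA cluster is copied into 1 long primary transcript, from which the Drosha enzyme frees each hairpin and Dicer then cuts out a short duplex. As a rule 1 arm of the duplex, 5p or 3p, is kept in an Argonaute protein and the other is degraded, so that mature miRNAs of 1 transcript can reach different levels. Clcn5 encodes a chloride and proton exchanger of endosomes, and the miRNA hairpins inside it are an X-linked cluster shared by mammals. Within the cluster, miR-501-3p is known in neurons as a regulator of the AMPA receptor subunit GluA1, and miR-188-5p as a regulator of neuropilin-2 in synaptic plasticity. In the RefSeq table of the GRCr8 assembly the genes lie inside the bounds of Clcn5 and on its strand, in the order Mir532, Mir188, Mir362, Mir501, Mir500. Mir3560 lies between Mir362 and Mir501 on the opposite strand and was not analysed here.

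A miRNA finds its targets mainly through its seed, bases 2 to 8. The seeds show which members could share targets, and the whole sequences show which could share reads. RefSeq (GRCr8) gave the mature sequence of 5 of the 6 members, written here 5′ to 3′ with the seed in capitals:
miR-532-5p: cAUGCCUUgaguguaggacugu
miR-188-5p: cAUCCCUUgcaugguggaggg
miR-501-3p: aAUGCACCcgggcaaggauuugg
miR-500-3p: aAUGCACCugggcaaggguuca
miR-532-3p: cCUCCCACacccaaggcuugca
miR-362-5p was the sixth member.

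miR-501-3p and miR-500-3p had the same seed. They were identical at 18 of the 22 positions that both have, and counted from 1 at the 5′ end with the base of miR-500-3p first they differed by U9C, G18A, C21U and A22G. How reads were divided between such close sequences rests on the authors' counting. The seeds of miR-532-5p and miR-188-5p differed by 1 base, G4C in the same numbering with miR-532-5p first. None of the other miRNAs among the 451 of the table that matched a RefSeq sequence had a seed of these 5 members.

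Total counts lay between 10492610 and 13111127 in the MCAO group and between 13722761 and 15411620 in the MCAO + rTMS group. Brain miRNAs led the libraries: the summed level of 5 neuronal and brain markers, among them miR-128-3p and miR-9a-5p, was 325571 to 423310 CPM in MCAO and 424725 to 613022 CPM in MCAO + rTMS libraries. Of these 5, miR-128-3p rose and miR-138-5p fell in the test described next, and the log2 fold changes of miR-124-3p (-0.49), miR-9a-5p (-0.16) and miR-132-3p (-0.43) did not pass it. Here CPM is the count per 1000000 of the library total after scaling with edgeR's TMM factors. The 5 markers of microglia and other myeloid cells (miR-223-3p, miR-142-3p, miR-142-5p, miR-146a-5p, miR-155-5p) summed to 695 to 718 CPM in MCAO and to 312 to 549 CPM in MCAO + rTMS libraries, and 4 of the 5 fell. The marker that did not pass, miR-146a-5p, held most of these sums. Its means were 618 CPM in MCAO and 414 CPM in MCAO + rTMS libraries (log2 fold change -0.58). Of the lists for other cells, 1 of 2 endothelial markers fell, 1 of 2 tested oligodendrocyte markers rose, 1 of 2 red blood cell markers rose and 1 fell, 2 of 3 muscle markers rose and 1 fell, and the liver marker miR-122-5p did not pass. Their summed levels were 2993 to 6298 CPM and 2017 to 3293 CPM for endothelium, 572 to 786 and 963 to 2106 for oligodendrocytes, 141 to 302 and 513 to 637 for red blood cells, 76.8 to 136 and 239 to 391 for muscle, and 2.48 to 29.6 and 10.2 to 11.1 for liver, in MCAO and MCAO + rTMS libraries. The oligodendrocyte marker miR-219a-5p was listed at 0 in 4 libraries. In bulk tissue, fewer cells of a type and less RNA per cell cannot be told apart.

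miRNAs were compared between the groups with edgeR's quasi-likelihood test. Its filter for low counts removed 41 of the 493, and p-values were adjusted over the rest by the Benjamini-Hochberg method. The members did not move together. miR-362-5p was 10.5-fold lower in the MCAO + rTMS group, miR-532-3p was 1.79-fold lower and miR-501-3p was 1.56-fold higher, while miR-532-5p, the most abundant member, did not pass the test. miR-500-3p was listed at 0 in every MCAO + rTMS library. miR-188-5p did not pass the filter. With an adjusted p under 0.05, 1 of the 5 members tested was higher, against 27.2% of all tested miRNAs, and 3 were lower, against 28.1%. This split depended on the scaling: with library totals only, 0 members were higher and 4 lower, beside 55 and 208 of all tested miRNAs, and with upper-quartile factors 0 members were higher and 3 lower, beside 85 and 172. The median log2 fold change was -0.84 over these 5 and -0.21 over all tested miRNAs. miR-500-3p passed the filter through its MCAO counts alone. miR-362-5p, with a listed 0 in MCAO + rTMS replicate 3, also needed its MCAO counts to pass. These counts and medians therefore only describe the members.

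**Figure D1:**
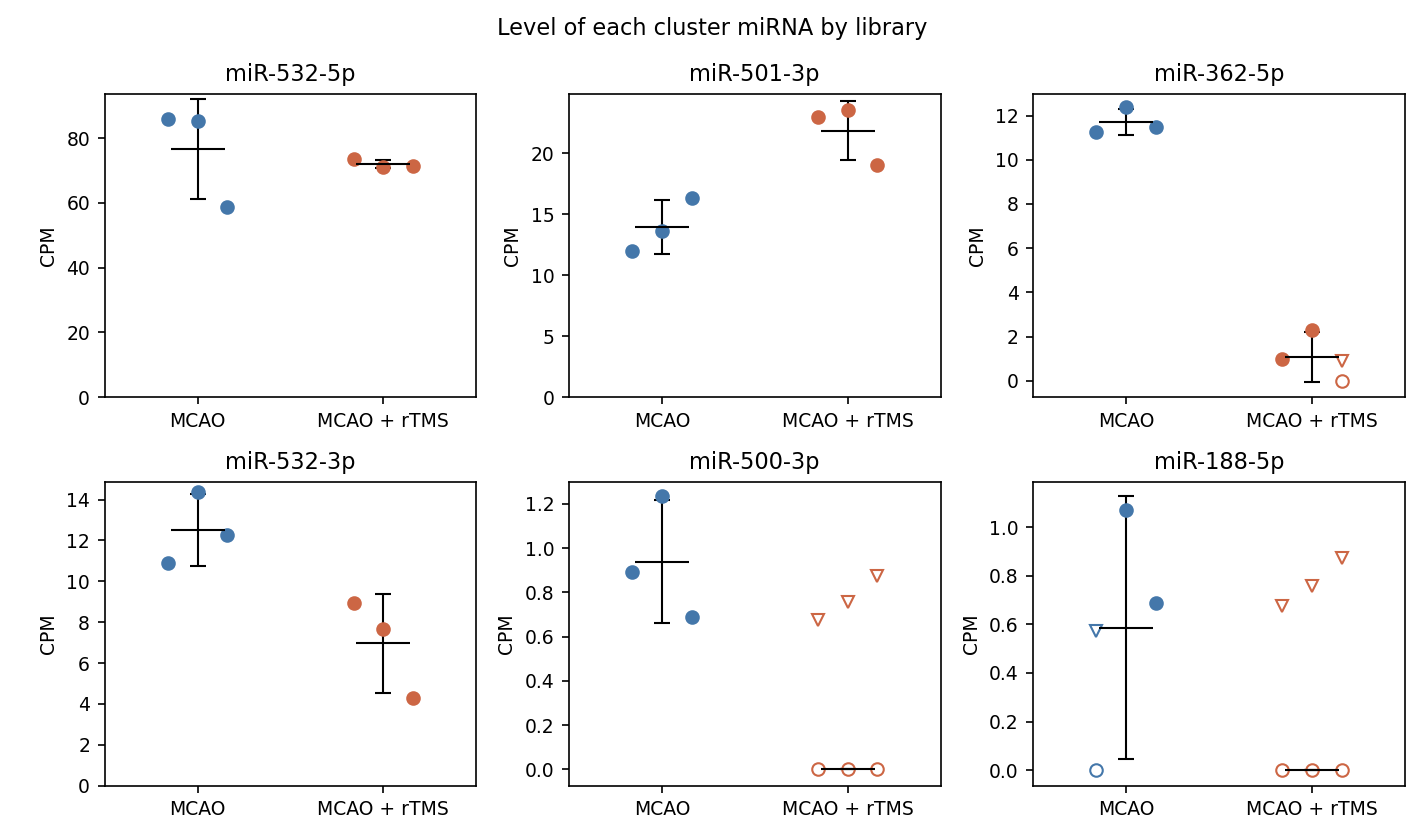
Level of each member in CPM (TMM-scaled, linear axis) in the 3 MCAO and 3 MCAO + rTMS libraries. Points are libraries, the black dash and bar are mean and SD, open circles are counts listed as 0, and open triangles mark the CPM of 9 counts in that library. miR-362-5p stands at 11.3 to 12.4 CPM in the MCAO group and at most 2.28 CPM in the MCAO + rTMS group, while the groups overlap for miR-532-5p.

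miR-532-5p, the major arm of its hairpin, was counted 1349, 1033 and 938 times in MCAO replicates 1, 2 and 3. In MCAO + rTMS replicates 1, 2 and 3 its counts were 978, 844 and 736. On the scaled level these became 85.9, 85.2 and 58.7 CPM against 73.6, 71.2 and 71.5 CPM. MCAO replicate 3 was the lowest of the 6 libraries and the other 2 MCAO libraries the highest, so the MCAO + rTMS libraries fell inside the MCAO range. The means were 76.6 ± 15.5 CPM with MCAO alone and 72.1 ± 1.29 CPM with rTMS (SD, n = 3 each). The log2 fold change of -0.088 ± 0.20 (standard error) did not pass the edgeR test (adjusted p = 0.732). With library totals in place of TMM factors it was -0.70 and passed the threshold (adjusted p = 0.0199).

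miR-501-3p was the next in abundance and was counted 165 and 261 times in MCAO replicates 2 and 3, with replicate 1 between them. In the MCAO + rTMS libraries it was counted 305, 279 and 196 times. The levels were 12.0, 13.6 and 16.3 CPM in the MCAO group. In the MCAO + rTMS group they were 22.9, 23.5 and 19.0 CPM. The CPM levels of the groups did not overlap and were higher with rTMS, although the raw counts overlapped. The log2 fold change of 0.64 ± 0.20 (standard error) passed the edgeR test (adjusted p = 0.0312). It was 0.014 with library totals only (adjusted p = 0.966) and 0.34 with upper-quartile factors (adjusted p = 0.183), and the call was also lost without MCAO replicate 1 (adjusted p = 0.101), MCAO replicate 2 (0.102), MCAO + rTMS replicate 1 (0.0739) or MCAO + rTMS replicate 2 (0.0812).

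miR-532-3p, the minor arm of the miR-532 hairpin, was counted 171, 174 and 196 times in the MCAO libraries and 119, 91 and 44 times in the MCAO + rTMS libraries. The levels were 10.9, 14.4 and 12.3 CPM in the MCAO group. In the MCAO + rTMS group they were 8.95, 7.67 and 4.28 CPM. All MCAO + rTMS libraries lay below all MCAO libraries, and replicate 3, which also had the smallest TMM factor (0.695), was the lowest. The log2 fold change of -0.84 ± 0.30 (standard error) passed the edgeR test (adjusted p = 0.0469). This call lay close to the threshold and was lost with RLE factors (adjusted p = 0.0588) and with DESeq2 (0.0601), and without each of MCAO replicate 1 (0.0727), MCAO replicate 2 (0.147), MCAO replicate 3 (0.0957), MCAO + rTMS replicate 2 (0.110) and MCAO + rTMS replicate 3 (0.0697).

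miR-362-5p was at a level similar to miR-532-3p in the MCAO group, where it was counted 177, 150 and 183 times. In MCAO + rTMS replicates 1, 2 and 3 the counts were 13, 27 and a listed 0. The levels were 11.3, 12.4 and 11.5 CPM in the MCAO group, which was the narrowest spread relative to the mean among the members in that group. In the MCAO + rTMS group they were 0.978, 2.28 and 0 CPM. The groups were far apart, and the MCAO + rTMS libraries were low in all 3 rats. The mean fell from 11.7 ± 0.591 to 1.08 ± 1.14 CPM (SD, n = 3 each).

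The log2 fold change of miR-362-5p was -3.39 ± 0.77 (standard error) and passed the edgeR test (adjusted p = 0.00861). Of all tested miRNAs, 15 had a lower fitted value, and all 15 were listed at 0 in every MCAO + rTMS library. The call held in all 15 alternatives in which this miRNA was tested, with log2 fold changes from -4.41 to -2.84. These alternatives reuse the same libraries and are no separate support. miR-362-5p needed its MCAO counts to pass the filter, and the filter of a mean count above 200 removed it. Without a filter its adjusted p in the edgeR test was 0.0108. Without MCAO + rTMS replicate 2 the log2 fold change was -4.41, and without MCAO + rTMS replicate 3, the library with the listed 0, it was -2.84. Levels of 4 myeloid markers, miR-223-3p, miR-142-3p, miR-142-5p and miR-155-5p, fell by 1.76, 1.35, 1.38 and 1.17 on the log2 scale beside it. Markers of other cells fell too: miR-138-5p (-1.65), miR-451-5p (-1.61), miR-126a-5p (-1.22) and miR-133a-3p (-1.08). Among the markers of other cells miR-128-3p, miR-219a-2-3p, miR-486, miR-1-3p and miR-206-3p rose. The part of any cell type in the fall of miR-362-5p was not tested. The most abundant of the listed myeloid markers, miR-146a-5p, did not pass the edgeR test.

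The table listed no count between 0 and 10, so a listed 0 may stand for up to 9 reads. Of the 36 counts of the members 8, or 22.2%, were listed as 0, against 9.67% of all 2958 counts in the table. The zeros fell unequally: 1 of the 18 MCAO counts and 7 of the 18 MCAO + rTMS counts of the members. The whole table had 86 zeros in MCAO and 200 in MCAO + rTMS libraries, and 48 miRNAs were listed at 0 in all MCAO + rTMS libraries while 3 were in all MCAO libraries.

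miR-500-3p, which has the seed of miR-501-3p, was counted 14, 15 and 11 times in the MCAO libraries and listed at 0 in all 3 MCAO + rTMS libraries. Its level in MCAO was 0.891, 1.24 and 0.689 CPM. The 0 of MCAO + rTMS replicate 3 could hide up to 0.875 CPM, which is above the level of MCAO replicate 3. The 0 of MCAO + rTMS replicate 2 could hide up to 0.759 CPM, also above it, so no fold is given. It passed the edgeR test (adjusted p = 0.00736), but with each 0 of the table set to 9 the log2 fold change was -0.18 (adjusted p = 0.715). The drop was therefore not measurable beyond the limit of the listed counts. The paper's list of changed miRNAs includes miR-500-3p, with these same counts.

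miR-188-5p was listed at 0 in MCAO replicate 1 and was counted 13 and 11 times in MCAO replicates 2 and 3. It was listed at 0 in all MCAO + rTMS libraries. The listed 0 of MCAO replicate 1 and those of the MCAO + rTMS libraries left the groups overlapping, and no fold is given. Without the filter it had an adjusted p of 0.126 in the edgeR test. It passed that test with the filter (adjusted p = 0.0326) when MCAO replicate 1, its only MCAO library at 0, was left out. That fit set 13 and 11 counts against listed zeros, each of which may stand for up to 9 reads. This call therefore rests on the limit of the listed counts and shows no measured drop.

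In abundance the members held ranks 176 (miR-532-5p), 273 (miR-501-3p), 317 (miR-532-3p), 343 (miR-362-5p), 455 (miR-500-3p) and 465 (miR-188-5p) of the 493 miRNAs by mean CPM. The sequences are between 21 and 23 bases long where known, so counts were not divided by length. In the MCAO group miR-501-3p at 14.0 ± 2.21 CPM, miR-532-3p at 12.5 ± 1.75 CPM and miR-362-5p at 11.7 ± 0.591 CPM (SD, n = 3 each) were within the spread of their neighbours in that order. In the MCAO + rTMS group the same 3 were apart, at 21.8 ± 2.43, 6.97 ± 2.42 and 1.08 ± 1.14 CPM (SD, n = 3 each), and none of their libraries overlapped. Of all tested miRNAs, 66.8% had CPM levels that did not overlap between the groups, as did miR-501-3p, miR-532-3p and miR-362-5p among the members. The listed values of miR-500-3p did not overlap either, but up to 9 reads behind each 0 would make them overlap.

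**Figure D2:**
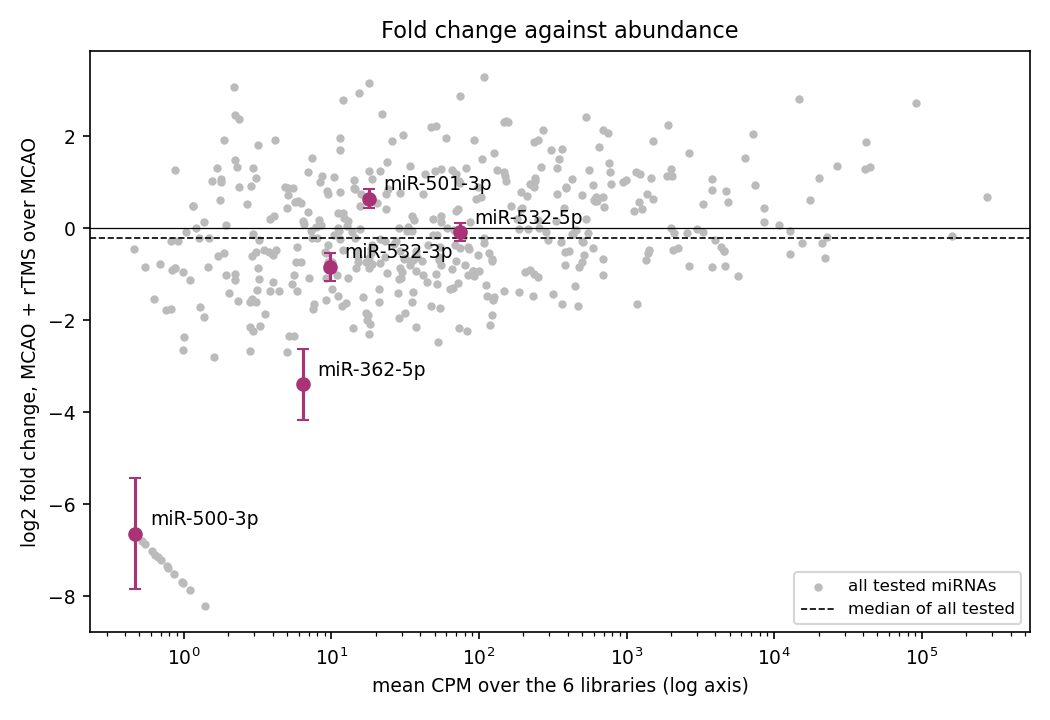
Log2 fold change between MCAO + rTMS and MCAO (y axis) against mean CPM over the 6 libraries (x axis, log scale) for all tested miRNAs, with the 5 tested members in purple and bars of 1 standard error. The dashed line is the median of all tested miRNAs, -0.21. miR-532-5p lies near it and miR-362-5p, at -3.39, lies far below. The fitted value of miR-500-3p depends on counts listed as 0.

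Because the median of all miRNAs moved with the scaling, each member was also set against that median. TMM factors gave a median of -0.21 and library totals alone a median of -0.80. Relative to it, miR-532-5p was at 0.12 with TMM factors and 0.11 with totals on the log2 scale. miR-501-3p was at 0.85 and 0.82, miR-532-3p at -0.63 and -0.63, and miR-362-5p at -3.19 and -3.16. A change of factors moves all log2 fold changes by about the same amount, so the likeness of these values follows from the subtraction and is no separate support. The calls of miR-532-5p and miR-501-3p depended on the scaling.

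**Figure D3:**
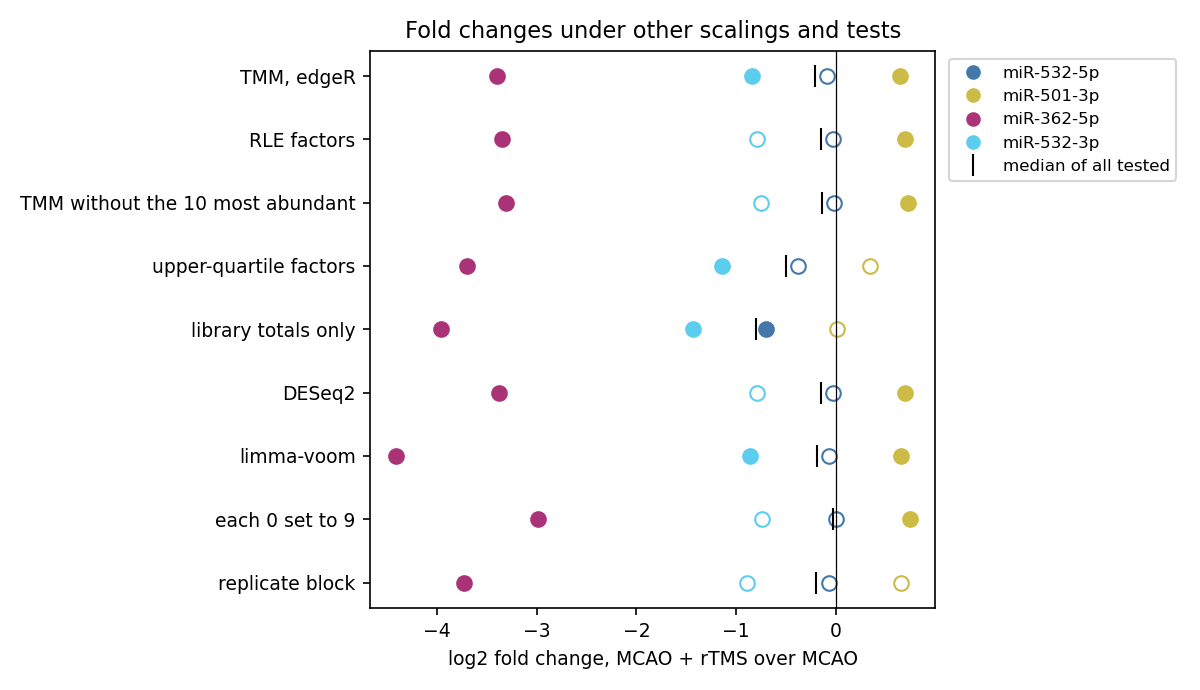
Log2 fold change (x axis) of the 4 members with at most 1 listed 0 under TMM factors with edgeR and under 8 alternatives (rows). Filled points have an adjusted p under 0.05, open points do not, and the black tick is the median of all tested miRNAs. miR-362-5p is filled in every row, between -4.41 and -2.98, and the other members move with the tick.

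The comparison between members within a library needs no scaling. The 6 members together had 1899, 1550 and 1600 counts in the MCAO libraries and 1415, 1241 and 976 in the MCAO + rTMS libraries. Relative to the library totals this was 145, 148 and 140 per 1000000 counts in MCAO and 91.8, 90.4 and 66.0 per 1000000 in MCAO + rTMS libraries. With library totals only, the median log2 fold change of all tested miRNAs was -0.80, with 55 higher and 208 lower. A lower share of the total was thus no trait of the members alone. On the TMM scale the sums were 116 ± 14.4 CPM and 102 ± 6.23 CPM (SD, n = 3 each) and the groups overlapped, since MCAO replicate 3 had 100.2 CPM.

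Within these sums miR-532-5p made up 58.6% to 71.0% in MCAO and 68.0% to 75.4% in MCAO + rTMS libraries, and the groups overlapped. The share of miR-501-3p was 9.90%, 10.6% and 16.3% in MCAO and 21.6%, 22.5% and 20.1% in MCAO + rTMS libraries, so the shares of the groups did not overlap. The share of miR-362-5p was 9.32%, 9.68% and 11.4% in MCAO replicates 1, 2 and 3 (95% Wilson intervals from 8.09% to 13.1% over these libraries). In MCAO + rTMS replicates 1 and 2 it was 0.919% (95% Wilson interval 0.538% to 1.57%) and 2.18% (at most 3.15%), and replicate 3 was listed at 0. Counting error was thus small beside the distance between the groups. Intervals cover counting error only, since reads without molecular identifiers are not independent molecules.

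**Figure D4:**
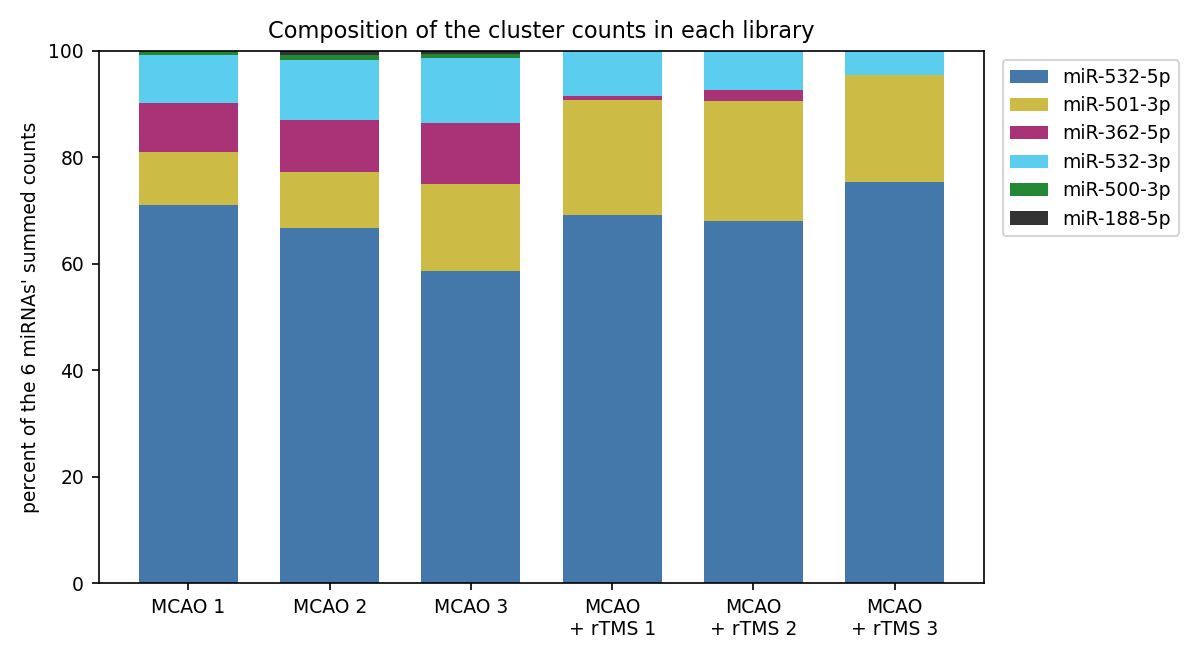
Share of each member (stacked colours, percent) in the summed counts of the 6 members, by library. The miR-362-5p band takes 9.32% to 11.4% in the MCAO libraries and at most 2.18% in the MCAO + rTMS libraries, and the miR-501-3p band widens from 9.90% to 16.3% in MCAO to 20.1% to 22.5%.

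The difference in change between members was compared as the log2 ratio of the counts of 2 members in each library, for the 6 pairs of the 4 members with at most 1 listed 0, and with that 0 set to 9. The ratio of miR-532-5p to miR-362-5p rose from 2.69 ± 0.297 to 5.85 ± 0.769 (SD, n = 3 each). The ratio of miR-501-3p to miR-362-5p rose from 0.25 ± 0.232 to 4.12 ± 0.654 (SD, n = 3 each). Thus the 2 miRNAs had near-equal counts in the MCAO group and differed widely in the MCAO + rTMS group. The ratio of miR-501-3p to miR-532-3p went from 0.16 ± 0.246 to 1.71 ± 0.407 (SD, n = 3 each). In these and 2 further pairs the groups did not overlap, with an exact two-sided permutation p of 0.1, the smallest that 3 rats against 3 can give, and 0.12 after adjustment over the 6 pairs. The share of non-overlapping ratios among pairs of all miRNAs was not computed. Of all tested miRNAs taken singly, 66.8% had CPM levels without overlap, so the count of pairs only describes the members. The ratio of miR-532-5p to miR-501-3p overlapped between the groups (change -0.72, exact permutation p = 0.2), so a difference between these 2 was not shown.

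Both arms of miR-532 were counted, which allowed the strand balance to be compared. The 5p arm took 88.8% (95% Wilson interval 87.1% to 90.2%), 85.6% (83.5% to 87.5%) and 82.7% (80.4% to 84.8%) of the miR-532 counts in MCAO replicates 1, 2 and 3. In MCAO + rTMS replicates 1, 2 and 3 it took 89.2% (87.2% to 90.9%), 90.3% (88.2% to 92.0%) and 94.4% (92.5% to 95.8%). All MCAO + rTMS libraries were higher, but MCAO + rTMS replicate 1 and MCAO replicate 1 lay within each other's intervals. The mean rose from 85.7% ± 3.02 to 91.3% ± 2.74 (SD, n = 3 each), by 5.58 percentage points. The exact two-sided permutation p was 0.1 and 0.203 after adjustment over the 144 hairpins that had both arms and at least 30 counts in every library. Of these hairpins 26.4% had a higher 5p share in MCAO + rTMS without overlap, and 18 had a larger increase than miR-532.

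**Figure D5:**
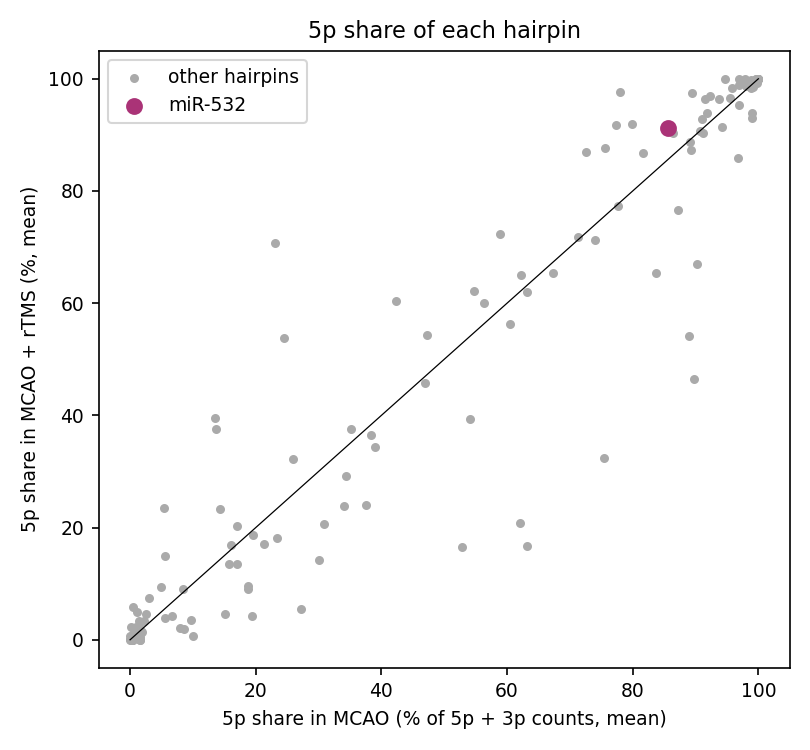
Mean 5p share of the 5p and 3p counts of 144 hairpins in the MCAO group (x axis, percent) and the MCAO + rTMS group (y axis, percent), with the line of equality. miR-532, in purple, lies above the line at 85.7% and 91.3%, and other hairpins lie on both sides.

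The members that share the seed AUGCACC, miR-501-3p and miR-500-3p, had a summed level of 12.9, 14.9 and 17.0 CPM in the MCAO libraries. In the MCAO + rTMS libraries the sum was 22.9, 23.5 and 19.0 CPM. miR-501-3p supplied nearly all of these reads, so the sum had the order of miR-501-3p alone.

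The tested miRNAs outside the cluster whose profile over the 6 libraries was closest to that of miR-532-5p were miR-30d-5p, miR-9a-5p and miR-374-3p. The likeness was the root mean square difference of log2(CPM + 1) after each profile was centred on its mean, and it was 0.0941, 0.119 and 0.136 for these 3. The other members were farther from miR-532-5p, with 0.454 for miR-500-3p, 0.458 for miR-501-3p, 0.500 for miR-532-3p and 1.45 for miR-362-5p. Among the 451 other tested miRNAs these were positions 161, 169, 197 and 446. The added 1 narrows the differences of low miRNAs such as miR-500-3p. The hairpin partner of miR-532-5p was thus no nearer to it in profile than many miRNAs from other genes.

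Lists of other miRNAs were set beside the cluster by counts. Of 52 other miRNAs in the table with a gene on the X chromosome, 46 were tested, of which 14 rose and 11 fell in the edgeR test, with a median log2 fold change of 0.020. Of 72 miRNAs numbered as those inside well-known protein-coding host genes, such as miR-128 and miR-338, 67 were tested, with 18 higher, 19 lower and a median of -0.43. For comparison, 123 were higher and 127 lower among all tested miRNAs with TMM factors, against 55 and 208 with library totals only and 85 and 172 with upper-quartile factors.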

How the data were processed

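The authors deposited read counts of mature miRNAs for the 6 libraries, with no listed count between 0 and 10. Per the labels, adapters were ligated to total RNA and products were selected by size on a gel; the processing notes list bcl2fastq, BWA, DESeq2 and rn6. The counting rule and the miRNA database are not given in the sources used here. A second deposited file, a smaller table of selected miRNAs, holds no member and was not used. The paper's own list of changed miRNAs is separate from that file and does include a member, as stated above.

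Groups and replicate numbers come from the sample titles. The members, lists and tests were chosen with earlier results of these data known. Named were all members, cell type markers, and the 3 nearest profiles. Counts were filtered with filterByExpr, scaled with TMM and tested with edgeR 4.0.16 (quasi-likelihood) in R 4.3.3, with Benjamini-Hochberg adjustment over all tested miRNAs; the methods' two-sample test was replaced because counts need a count model. The standard error is the log2 fold change divided by the square root of F. Alternatives used other factors and filters, DESeq2 1.42.0, limma 3.58.1 (voom), each 0 set to 9, a replicate block, and each library left out. The fit was checked on simulated data. Permutation tests used scipy 1.17.1 in Python 3.11.15. Each library was taken as 1 rat, as the methods describe, and p-values measure the spread between these libraries. Adapter ligation depends on the sequence, so the order of levels between miRNAs is an order of reads. Sequences are from RefSeq (GRCr8), whose build differs from that of the notes, so no coordinates are printed. Exons of Clcn5 were not analysed here.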

Additional observations from a re-analysis of the deposited data

How the results depend on the processing

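With TMM factors and edgeR, 4 members had an adjusted p under 0.05. The number was 2 with each 0 set to 9, where miR-362-5p and miR-501-3p were left. It was 0 with a mean count above 200, a filter that only miR-532-5p and miR-501-3p pass (adjusted p 0.396 and 0.0769). With a library left out it lay between 2 and 3, and it was 2 without MCAO replicate 2 and without MCAO + rTMS replicate 2. Each of these tallies held miR-362-5p and also miR-500-3p, whose call rests on listed zeros. Without MCAO replicate 1 the remaining call was of miR-188-5p, which is not among the 4 and rests on listed zeros as well. The cause of the loss with a library left out was not tested. With the other scalings, DESeq2, limma-voom and no filter it was 3 or 4, but not always of the same members. Library totals called miR-532-5p and lost miR-501-3p, upper-quartile factors lost miR-501-3p, and RLE factors, DESeq2 and TMM without the 10 most abundant miRNAs lost miR-532-3p. With the replicate block it was 1, miR-362-5p (adjusted p = 0.0371). No pairing by replicate number was seen. Deviations from the group means correlated at 0.198, -0.119 and -0.114 for numbers 1, 2 and 3 over all tested miRNAs. Between libraries of unlike numbers the correlations lay between -0.279 and 0.297. With 3 libraries per group these values cannot decide whether the numbers pair libraries.

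miR-362-5p kept its call in all 15 alternatives that tested it, miR-500-3p in 13 of 15, miR-501-3p in 8 of 16 and miR-532-3p in 5 of 15. The alternatives reuse the same libraries, so these tallies are no separate support. Only the alternative with each 0 set to 9 replaces the listed zeros of miR-500-3p, and there its call was lost. The tally of miR-500-3p therefore does not measure how steady its call is. miR-532-5p changed sign to 0.0028 with each 0 set to 9, and lay between -0.22 and 0.0033 with a library left out. Its sign is therefore not known. The difference of the members' summed share, MCAO + rTMS minus MCAO, was -61.3 per 1000000 of all counts and -152.6 per 1000000 of the counts without the 10 most abundant miRNAs, which is a smaller total by construction. With library totals only, the median log2 fold change of all tested miRNAs was also below 0 (-0.80). The rise in the 5p share of miR-532 stayed between 4.03 and 7.11 percentage points with a library left out. Depth limits miR-500-3p and miR-188-5p, which lay near 10 counts where they were listed. It also limits the size of the fall of miR-362-5p, counted 13, 27 and a listed 0 in MCAO + rTMS libraries. With that 0 taken as 9 counts, its mean CPM was 8.50-fold lower in MCAO + rTMS than in MCAO.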
